A study of Mus musculus with 9 samples.

Results

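The genes described here are the members of the replication, cell cycle and mitosis families in a table of messenger RNA levels from sorted mouse bone marrow cells. They were chosen by a rule on gene names, with earlier results of these data known. The families were Mcm, Rrm, Orc, Gins, Rfc and the DNA polymerase subunits for replication, and Cenp, Kif, Aurk, Plk, Bub and Ncap for mitosis. Cdc, Cdk, Ccn (A to F) and Smc genes made up the remainder, and names starting with Cdc42 were left out. The rule took 53 of the 2402 genes of the table: 20 replication genes, 18 mitosis genes and 15 others. No Gins gene was among them. Of the 53 members 52 reached 10 normalized counts in 2 or more libraries and are summarized below, and Cdk8 did not.

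The study compared megakaryocyte progenitors (MkP), the marrow cells that give rise to platelet-forming megakaryocytes, with one another and with hematopoietic stem cells (HSC). The 9 samples were 2 of Tom+ MkP from old mice, 2 of GFP+ MkP from old mice, 2 of Tom+ HSC from old mice and 3 of GFP+ MkP from young mice. Old mice were 18 to 20 months of age in the labels and young mice 3 months. All were male C57BL/6 FlkSwitch mice, in which a Flt3-driven Cre recombinase acts on the mTmG reporter, so that cells carry Tom (tdTomato) until Cre has acted in them or an ancestor and GFP afterwards. MkP were sorted as lineage-negative, cKit+, Sca1-, CD150+, CD41+ cells, and HSC as lineage-negative, cKit+, Sca1+, CD150+, Flk2-, Tom+ cells. The labels do not say whether samples of a group came from separate animals.

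The 9 rows of the table carry no sample names, and no label ties a row to a sample. They are called libraries 1 to 9 by their row, which is a name and not an order. No library has a group here, and no value is compared between young and old, Tom+ and GFP+, or MkP and HSC. The libraries held 1790670 to 4373460 reads over the genes of the table. A count of 0 allows up to 3 reads, which is 2.17 to 5.89 normalized counts depending on the library, for counting error only.

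Cells copy their DNA once per division. Origins are marked by the origin recognition complex (Orc), on which Cdc6 and Cdt1 load the Mcm helicase; DNA polymerases then copy both strands behind the helicase, with a sliding clamp placed by the Rfc clamp loader and with deoxynucleotides made by ribonucleotide reductase (Rrm). Mitosis follows under cyclin B and Cdk1, with Aurora and Polo-like kinases, centromere proteins (Cenp), motor proteins of the kinesin family (Kif), the Bub checkpoint and condensins (Ncap) that compact and separate the chromosomes. In bone marrow, most long-lived stem cells are quiescent, whereas committed progenitors divide often. Promoters of many genes of both phases carry sites for E2F factors, NF-Y (which binds CCAAT) or the DREAM and MuvB complexes, which bind the cell cycle genes homology region (CHR, core TTTGAA).

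The 250 bases before the annotated start of 6 members are shown because these are the pairs with the widest range over libraries in each class that have an entry in the promoter table. They run 5′ to 3′ along the gene's strand in RefSeq annotation of GRCm38.p6, with motif matches on either strand in capitals. The motifs were the NF-Y motif CCAAT, the CHR core given above, and the E2F motifs TTTCCCGC, TTTGGCGC and TTTCGCGC. The regions are chr12:24708004-24708253 (plus strand) for Rrm2, chr8:75109259-75109508 (plus) for Mcm5, chr7:127042421-127042670 (minus) for Kif22, chr5:30666636-30666885 (plus) for Cenpa, chr13:100786487-100786736 (minus) for Ccnb1 and chr9:70421555-70421804 (minus) for Ccnb2.
Rrm2: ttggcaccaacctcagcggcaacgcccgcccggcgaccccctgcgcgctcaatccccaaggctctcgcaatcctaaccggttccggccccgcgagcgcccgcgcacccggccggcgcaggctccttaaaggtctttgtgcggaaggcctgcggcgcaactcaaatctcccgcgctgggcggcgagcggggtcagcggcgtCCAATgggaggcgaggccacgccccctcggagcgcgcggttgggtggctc
Mcm5: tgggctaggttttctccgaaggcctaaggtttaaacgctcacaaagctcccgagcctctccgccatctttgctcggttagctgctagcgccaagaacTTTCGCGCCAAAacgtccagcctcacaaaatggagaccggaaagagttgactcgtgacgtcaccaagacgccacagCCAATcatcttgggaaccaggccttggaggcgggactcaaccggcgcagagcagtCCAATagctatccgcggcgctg
Kif22: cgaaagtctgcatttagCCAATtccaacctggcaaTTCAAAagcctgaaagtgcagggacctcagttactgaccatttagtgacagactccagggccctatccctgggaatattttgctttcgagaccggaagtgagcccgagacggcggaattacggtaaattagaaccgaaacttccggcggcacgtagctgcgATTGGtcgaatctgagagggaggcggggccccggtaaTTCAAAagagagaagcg
Cenpa: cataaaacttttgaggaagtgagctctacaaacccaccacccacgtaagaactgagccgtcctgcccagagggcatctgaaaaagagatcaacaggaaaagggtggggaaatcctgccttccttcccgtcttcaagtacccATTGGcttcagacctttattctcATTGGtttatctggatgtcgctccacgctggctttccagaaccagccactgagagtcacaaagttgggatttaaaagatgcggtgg
Ccnb1: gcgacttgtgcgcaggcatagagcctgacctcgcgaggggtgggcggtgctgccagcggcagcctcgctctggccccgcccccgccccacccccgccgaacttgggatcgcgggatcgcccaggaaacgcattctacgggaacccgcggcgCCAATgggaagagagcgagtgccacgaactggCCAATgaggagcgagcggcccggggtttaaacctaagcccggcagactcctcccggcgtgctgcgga
Ccnb2: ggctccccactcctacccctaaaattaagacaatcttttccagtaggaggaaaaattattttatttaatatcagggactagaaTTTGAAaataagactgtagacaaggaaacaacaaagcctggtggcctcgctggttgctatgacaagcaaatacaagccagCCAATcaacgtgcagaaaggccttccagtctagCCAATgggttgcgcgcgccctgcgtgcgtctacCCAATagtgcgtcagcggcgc

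All 6 windows held at least 1 CCAAT match. Matches are placed by their first base, counted back from the start. Ccnb2, cyclin B2, had CCAAT at 87, 54 and 21 bases before the start. Ccnb1, cyclin B1, had it at 99 and 67. Mcm5 had it at 77 and 22, and was the only member of the 6 with an E2F match; there a TTTCGCGC match at 153 and a reverse-strand TTTGGCGC match at 149 overlap. Kif22, a chromosome-binding kinesin, held TTTGAA on the reverse strand at 215 and 17 bases.

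Of the 53 members 44 had a promoter in the table, and Kif20a, Cdc25c, Aurkb, Cdk17, Rfc2, Mcm4, Ccna2, Smc4 and Kif5b had none. All genes here are those of the promoter table, and the share over the genes of the count table was not computed. CCAAT on either strand was found in 30 of 44 member windows (68.2%), against 37.5% of all 27025 genes of the promoter table. Any of the 3 E2F motifs was found in 13 of 44 (29.5%), against 1.78% of all genes. TTTGAA was found in 11 of 44 (25.0%), against 18.3% of all genes. By class, an E2F motif was present in 7 of 18 replication, 3 of 15 mitosis and 3 of 11 other members, and TTTGAA in 2 of 18, 5 of 15 and 4 of 11 in the same order. With the 50 bases after the start included, TTTGAA was found in 15 of 44 member windows (34.1%), against 20.2% of all genes, with 2 of 18 replication and 9 of 15 mitosis windows among them. Aurka, Cenpa, Kif4 and Plk1 were the mitosis members that this added. With these 50 bases CCAAT was still found in 30 of 44 member windows, against 41.1% of all genes. A match is a run of letters and no measure of binding.

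Libraries 3 and 4 stood apart from the other 7 in these families. Over the 52 members, the median difference from the gene's own median over the 9 libraries, on the log2(value + 1) scale, was -2.88 in library 3 and -1.74 in library 4. In the other libraries it lay between -0.36 in library 8 and 0.50 in library 7. Over all 2341 genes that passed the filter, the same median was 0.72 in library 3, 0.44 in library 4 and 0.00 in each of the rest, so relative to all genes the members stood at -3.60 in library 3 and -2.18 in library 4. Because the libraries are bulk samples, fewer cells of a type and less RNA per cell cannot be told apart.

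Markers of blood cell types differed between the same libraries. The summed level of the 10 stem cell markers in the table, of 14 listed (among them Procr, Hlf, Mecom and Ly6a), was 28461 in library 3 and 18340 in library 4, against 863 to 3463 elsewhere. Outside libraries 3 and 4 the largest part of that sum was Tie1, at 449 to 1676. The 10 megakaryocyte and platelet markers of 15 listed (among them Pf4, Itga2b and Gp9) summed to 12533 in library 3 and 20889 in library 4, against 105638 to 189867 elsewhere. Of the 9 granulocyte and monocyte markers 4 were in the table and summed to 12916, 12329 and, in the other libraries, 366 to 2142. Nearly all of that sum was Prtn3, at 12248 in library 3 and 11466 in library 4, and Csf3r was likewise highest there, at 668 in library 3 and 862 in library 4. Csf1r and Cebpa were listed at 0 in library 3. The 4 erythroid markers of 10 listed summed to 290 in library 3 and 309 in library 4, against 5788 to 8530 elsewhere. Nearly all of that sum outside libraries 3 and 4 was Aqp1, at 5422 to 8514. Rhd, Ermap and Add2 were also low in library 8, at 3.15, 10.5 and 2.10, against 4.72, 2.36 and 3.54 in library 3. The 3 T and NK cell markers of 8 listed summed to 723 in library 3 and 1180 in library 4, against 2236 to 27179 elsewhere, where Nkg7 held nearly all of the sum. Klrb1c and Lck ran the other way. Klrb1c was at 493 in library 3 and 469 in library 4, against at most 68.2 elsewhere, and Lck at 44.8 and 43.5, against 6.99 to 26.8 elsewhere. Of the mast cell markers only Fcer1a was in the table, at 0 in library 3 and 3.43 in library 4; of the macrophage markers only Cd5l, at 0 in both; and of the B lineage markers only Vpreb1, below the filter. What part the marker levels have in the values of the cell cycle genes was not tested.

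Most members spanned a wide range over the 9 libraries. A range of at least 4-fold, as highest over lowest value after adding 1, was seen in 41 of 52 members, against 66.4% of all genes tested. The count depended on the scaling: it was 36 of 52 with each library scaled to its table total, against 68.1% of all genes, which leaves little difference, and 48 with median-of-ratios scaling, against 70.8%. The median range was 10.5-fold over the members and 6.16-fold over all genes. By class, the range reached 4-fold in 17 of 20 replication, 15 of 18 mitosis and 9 of 14 other members. The median range was 9.90-fold for replication, 13.0-fold for mitosis and 16.1-fold for the others. Reads of all 52 members differed between libraries beyond counting error (chi-square test with Benjamini-Hochberg adjustment), as did 98.7% of all genes, so this test does not set the members apart; it compares libraries and not conditions.

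The lowest library was library 3 for 45 of 52 members, against 36.6% of all genes. All 20 replication members were lowest there, as were 13 of 18 mitosis members and 12 of 14 others. Cenpl, Kif5b and Kif24 were lowest in library 4, where 5.77% of all genes were lowest. Kif3a, Kif16b, Cdk17 and Cdc40 were highest in library 3, the reverse of the rest, as were 44.0% of all genes. For Cdc40 the margin was small, at 251 against 241 in library 4 and 239 in library 8. In library 3, 44 members were at least 2-fold below their own median, against 32.6% of all genes, and in library 4 there were 39, against 22.6%. In library 8 there were 2, Rrm2 and Cenpa, against 4.19% of all genes.

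**Figure D1:**
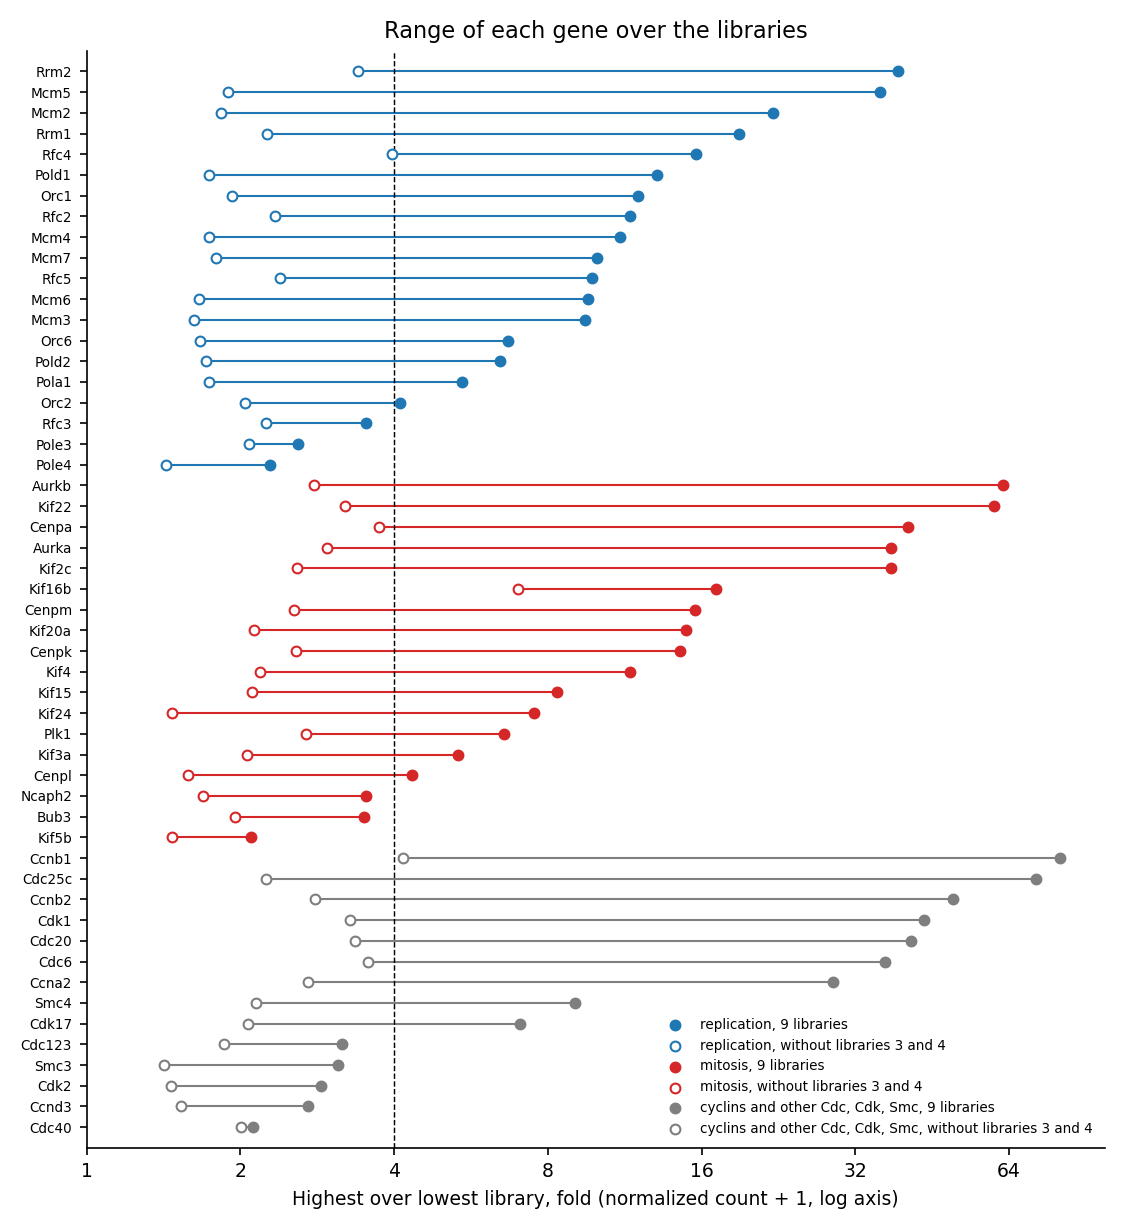
Highest over lowest normalized count (after adding 1, log axis) of each of the 52 members, over 9 libraries (filled) and over the 7 libraries without 3 and 4 (open), coloured by class. The dashed line marks 4-fold, which 41 filled and 2 open points pass.

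The wide ranges rested on libraries 3 and 4. Without them a range of at least 4-fold was left in 2 of 52 members, against 20.8% of all genes tested in those 7 libraries. These were Ccnb1, at 4.16-fold, and Kif16b, at 6.99-fold, where the lowest library held 1 read. The median range over the members was then 2.09-fold, against 2.32-fold over all genes. By class it was 1.86-fold for replication, 2.37-fold for mitosis and 2.20-fold for the others. Without library 3 alone, 33 of 52 members reached 4-fold, against 50.1% of all genes. Among the 7 libraries, library 8 was lowest in 35 of 52 members, against 29.4% of all genes, and library 7 highest in 27, against 30.0%. Both counts are with the deposited scaling. Scaling to the table total moved all genes by 0.19 in library 8 and -0.56 in library 7 on the log2 scale. The count for library 8 was not recomputed with it.

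Among the licensing genes, the 6 subunits of the Mcm helicase moved together. Mcm6 (ENSMUSG00000026355, minus strand of chr1:128331590-128359664 in GENCODE M21 on mm10) had the highest level, also per length. It had 22076, 27134, 3342, 9920, 30362, 28560, 31988, 19307 and 24499 normalized counts in libraries 1 to 9. Libraries 3 and 4 lay below all others, and the highest library was 9.57-fold (95% interval of counting error 9.20 to 9.96) above the lowest. Mcm5 had 9909, 11745, 485, 2617, 17061, 14994, 17384, 9193 and 13227 normalized counts in the same order. It had the widest range of the family, 35.9-fold (32.5 to 39.7), with library 3 a further step below library 4. These intervals hold for counting error only, and the extremes of 9 libraries were picked before they were computed.

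Mcm2 lay between 712 and 15760 normalized counts, with a median of 12068. Mcm7 lay between 2016 and 20259 (median 14863), and 12.6% of its exon bases are shared with other annotated genes, among them the microRNAs it hosts and Ap4m1 on the opposite strand. Mcm3 had 960 to 9099 (median 7142), and Mcm4 had 214 to 2374 (median 1708). All were lowest in library 3. Their ranges after adding 1 were 22.1-fold for Mcm2, 9.47-fold for Mcm3 and 11.1-fold for Mcm4, and the ratio of Mcm7 had an interval of 9.56 to 10.6. Without libraries 3 and 4 no subunit reached 2-fold, with ranges of 1.62-fold for Mcm3 to 1.89-fold for Mcm5.

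The subunits are present in equal number in the assembled helicase, so their levels were also set side by side per kilobase of annotated exon. Per kilobase, the median over libraries was 5250 for Mcm6, 3358 for Mcm7, 2941 for Mcm5, 1904 for Mcm3, 1735 for Mcm2 and 476 for Mcm4. Mcm6 was above every other subunit and Mcm4 below every other subunit in each of the 9 libraries. In each of the 9 libraries Mcm7 was also above Mcm5, and Mcm3 above Mcm2, by less than their spread over libraries: outside libraries 3 and 4, Mcm7 lay between 2554 and 4577 per kilobase and Mcm5 between 2302 and 4354. In library 3, Mcm3 at 256 per kilobase was above Mcm5 at 121, the reverse of their order in the 7 libraries other than 3 and 4. In library 4 it was above it as well, at 789 and 655. The exon length takes in all annotated isoforms, so that long or rare exons lower a gene's value per kilobase.

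**Figure D2:**
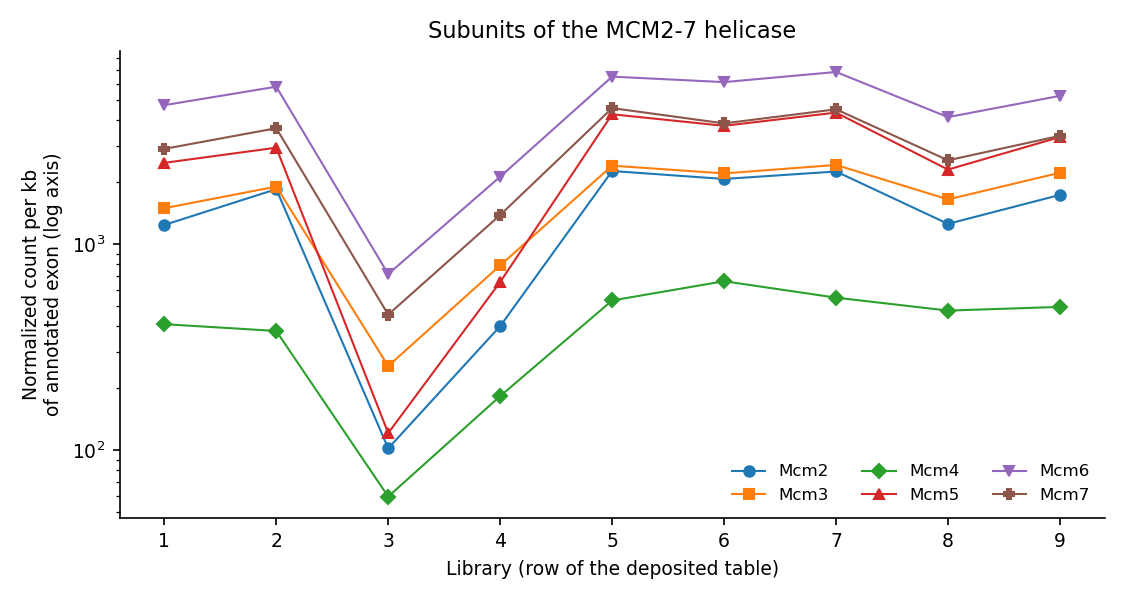
Normalized count per kilobase of annotated exon (log axis) of the 6 Mcm helicase subunits in each library; lines only join the points of a gene, since the libraries have no order. Mcm6 is highest and Mcm4 lowest in every library, and all 6 are lowest in library 3.

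Orc and Cdc6 load the helicase. Cdc6 had 541, 765, 36.6, 103, 1371, 994, 1305, 385 and 732 normalized counts in libraries 1 to 9. Its ratio of highest to lowest was 37.5 (26.3 to 55.4), close in size to that of Mcm5. Per kilobase of exon the median level was 140 for Cdc6, 125 for Orc6, 69.8 for Orc2 and 7.33 for Orc1, and Orc2 and Orc6 varied less than Cdc6. Orc6 lay between 66.0 and 446 (median 309), Orc2 between 105 and 434 (median 269) and Orc1, the subunit that cycles in human cells, between 2.36 and 39.4 (median 25.5). The lowest Orc1 value was 2 reads, which puts its ratio of 16.7 between 4.14 and 146, an interval that holds the ratio of Cdc6. For Orc2, 29.8% of the exon bases overlap Nif3l1 on the opposite strand, and whether strand was used in counting is not given in the sources used here.

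Ribonucleotide reductase showed a wider range in its small subunit. Rrm2 (ENSMUSG00000020649, plus strand of chr12:24708241-24714146) had 2208, 3598, 123, 636, 4140, 3957, 4783, 1406 and 2882 normalized counts in libraries 1 to 9. Besides the low libraries 3 and 4, library 8 lay below the remaining 6, at -1.04 from the gene's median on the log2 scale. Rrm1, the large subunit, had 563 to 10661 (median 6393) and was likewise lowest in library 3. The ratios were 39.0 (32.1 to 47.9) for Rrm2 and 18.9 (17.3 to 20.8) for Rrm1, and 3.40-fold against 2.26-fold (after adding 1) without libraries 3 and 4.

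Of the clamp loader, Rfc2 had the highest median level per kilobase of exon, at 2845. It had 18311, 19213, 1865, 4542, 19270, 17929, 21736, 9281 and 11746 normalized counts in libraries 1 to 9. Libraries 8 and 9 lay below the 5 high libraries and above library 4. Rfc4 had 291 to 4562 (median 2205) and kept the widest range of the replication class without libraries 3 and 4, at 3.96-fold, just under the threshold. Rfc5 had 865 to 8445 (median 5070) and Rfc3 had 631 to 2226 (median 1332). Rfc3 stayed under 4-fold over all 9 libraries, at 3.52-fold. On the opposite strand, Lat2 overlaps 15.1% of the exon bases of Rfc2 and Eif4a2 12.7% of those of Rfc4.

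The polymerase subunits split by size of range. Pold1, the catalytic subunit of polymerase delta, had 686 to 8977 normalized counts (median 5963), a ratio of 13.1. Pold2, its accessory subunit, had 1760 to 11362 (median 7707), and Pola1, the catalytic subunit of polymerase alpha, had 27.1 to 152 (median 90.9). Pole3 and Pole4 are small histone-fold subunits of polymerase epsilon, and they were the flattest replication genes. Pole3 had 232 to 604 (median 392) and Pole4 had 2195, 1800, 1126, 1371, 2042, 2332, 2581, 2110 and 2029 in libraries 1 to 9. Their ranges were 2.59-fold and 2.29-fold. Pole3 also belongs to a chromatin-remodelling complex, a role outside the fork.

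Other genes of these steps, taken from lists chosen with earlier results of these data known, are given by count, to be read against the 66.4% of all genes that reached 4-fold and the 36.6% that were lowest in library 3. Among the 12 genes of a first list, Cdt1, Tipin, Timeless, Clspn and Wdhd1 were in the table. Of these, 5 of 5 spanned 4-fold or more and 5 of 5 were lowest in library 3. On a list of fork genes it was 11 of 13, with 13 of 13 lowest in library 3. Pcna, the sliding clamp, had 1006 to 6506 normalized counts and Asf1b, a histone chaperone, 144 to 7967. Rpa1, of the single-strand binding complex, had the highest median of the fork list before allowing for length and lay between 2648 and 10993. In nucleotide supply, 5 of 7 reached 4-fold, near the share of all genes, and 7 of 7 were lowest in library 3. Tyms, thymidylate synthase, had 228 to 6724 and Tk1, thymidine kinase, 87.3 to 2465. Paics and Nme1, which also serve nucleotide metabolism outside S phase, had 4511 to 11372 and 2613 to 16143.

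**Figure D3:**
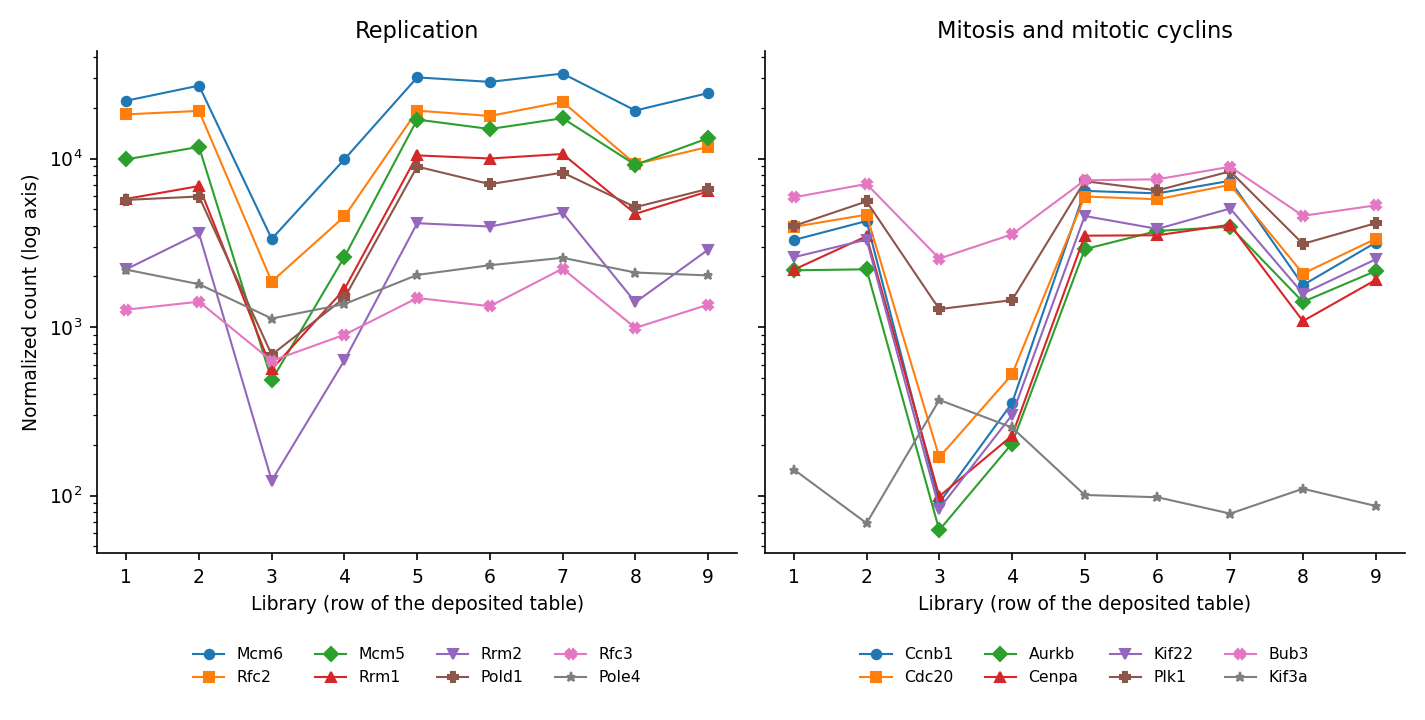
Normalized counts (log axis) of 8 replication genes (left) and 8 mitosis and cyclin genes (right) in each library; lines only join the points of a gene. Libraries 3 and 4 are lowest for each gene shown except Kif3a, which is highest there.

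After adding 1, cyclin B1 had the widest range of all members, at 80.5-fold. Ccnb1 (ENSMUSG00000041431, minus strand of chr13:100778650-100786570), had 3291, 4267, 90.8, 354, 6441, 6224, 7392, 1777 and 3176 normalized counts in libraries 1 to 9. Library 7 was 81.4-fold (65.0 to 103) above library 3, and library 4 differed from the gene's median by -3.21 on the log2 scale. Cdk1, the kinase that cyclin B activates, had 1654, 1586, 63.7, 189, 1935, 2456, 2823, 861 and 1477 in the same order. Ccnb2 had 146 to 7338 (median 4152) and Ccna2, cyclin A2, had 142 to 4116 (median 2092). Cdc20, an activator of the anaphase-promoting complex, had 169 to 6996 (median 3939). Cdc25c, a phosphatase that activates Cdk1, had 1.18 to 157 (median 104). Its lowest value was 1 read in library 3, so that its ratio of 133 has an interval of 23.3 to 5294.

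Aurkb, the Aurora kinase of the chromosomal passenger complex (ENSMUSG00000020897, plus strand of chr11:69045647-69051664), had 2174, 2206, 62.5, 204, 2904, 3726, 3947, 1413 and 2155 normalized counts in libraries 1 to 9. This was the widest range of the mitosis class, 63.1-fold (48.1 to 84.5). Aurka, the Aurora kinase of the spindle poles, had 67.2 to 2556 (median 1307). Plk1, the Polo-like kinase (ENSMUSG00000030867, plus strand of chr7:122159439-122169873), varied less. It had 3988, 5576, 1280, 1447, 7354, 6483, 8411, 3123 and 4140, with libraries 3 and 4 lowest and close together. Its ratio was 6.57 (6.16 to 7.02), and 7.09% of its exon bases overlap a gene on the opposite strand.

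The centromere genes were all low in libraries 3 and 4. Cenpa, the centromeric histone, had 2193, 3466, 99.1, 227, 3491, 3512, 4054, 1087 and 1907 normalized counts in libraries 1 to 9, and library 8 was the lowest of the other 7. Cenpm had 50.7 to 798 (median 485), Cenpk had 21.2 to 322 (median 221) and Cenpl had 83.5 to 365 (median 277). Cenpk, Cenpl and Cenpm belong to the inner kinetochore. Cenpl had the narrowest range of the 4, with a ratio of 4.37 (3.35 to 5.77), and its libraries 4 and 3 were close, at 83.5 and 94.4.

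The kinesins were of both mitotic and cargo type. Of the 9 in the table, Kif2c, Kif4, Kif15, Kif20a, Kif22 and Kif24 were on the list of mitotic or centrosomal kinesins, and Kif3a, Kif5b and Kif16b carry cargo along microtubules outside mitosis. Kif22 had 2600, 3309, 83.8, 301, 4570, 3830, 5061, 1582 and 2527 normalized counts in libraries 1 to 9. Kif2c, a microtubule depolymerase at centromeres, had 16.5 to 655 (median 464) and Kif20a, of cytokinesis, 88.5 to 1332 (median 784). These 3 were lowest in library 3. Kif20a shares 29.3% of its exon bases with Cdc23 on the opposite strand. The others were low throughout. Kif4 had 4.72 to 65.2 (median 36.7), Kif15 had 5.90 to 56.5 (median 34.6) and Kif24 had 4.58 to 41.0 (median 35.0), each with its lowest library at 5 reads or fewer.

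Of the cargo kinesins, Kif3a and Kif16b ran the other way and Kif5b did not. Kif3a, a motor of the primary cilium (ENSMUSG00000018395, plus strand of chr11:53567379-53601967), had 143, 68.7, 370, 254, 101, 97.9, 78.3, 110 and 86.9 normalized counts in libraries 1 to 9. Libraries 3 and 4 were the highest, at 1.86 and 1.32 above the gene's median on the log2 scale. Kif16b, an endosome motor (median 14.1), was also highest in library 3, at 49.5, and lowest in library 2, at 1.96 or 1 read, which puts its ratio of 25.3 between 4.29 and 1020. Kif5b, conventional kinesin, had 974 to 2049 (median 1804), the narrowest range of the mitosis class at 2.10-fold. Like the mitotic kinesins it was low in libraries 4 and 3, at 974 and 1170, against 1394 to 2049 elsewhere.

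Bub3 and Ncaph2 completed the class. Bub3, a checkpoint protein that also binds splicing factors, had 5896, 7077, 2554, 3554, 7440, 7546, 8953, 4582 and 5284 normalized counts in libraries 1 to 9. Ncaph2, a subunit of condensin II, which is nuclear throughout the cell cycle, had 1909 to 6725 (median 4742). Both were lowest in library 3 but under 4-fold, at 3.50-fold and 3.52-fold. Sco2 and Tymp on the opposite strand overlap 19.7% of the exon bases of Ncaph2.

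Among the remaining members, Ccnd3, Cdk2, Smc3, Cdc123 and Cdc40 stayed under 4-fold. Cdc6, which loads the helicase, and Cdk17 did not, at 36.5-fold and 7.06-fold. Ccnd3, a D-type cyclin of G1, had 19206, 17754, 9215, 13565, 20545, 19226, 24955, 16758 and 16318 normalized counts in libraries 1 to 9, a ratio of 2.71 (2.64 to 2.78). Its median of 17754 was the highest of the class before allowing for length. Cdk2, the kinase of S phase entry, had 648 to 1864 (median 1671). Smc3, of cohesin, had 786 to 2438 (median 1985), while Smc4, of condensin, had 508 to 4598 (median 2896). The ranges after adding 1 were 2.88-fold for Cdk2, 3.10-fold for Smc3 and 9.03-fold for Smc4. Cdc123, a factor for assembly of translation initiation factor eIF2, had 797 to 2530 (median 1727).

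Cdk17 and Cdc40 share a name with the cell cycle genes but not their pattern. Cdk17, a PCTAIRE-family kinase, had 47.6, 49.1, 342, 201, 81.5, 83.9, 64.5, 99.6 and 97.0 normalized counts in libraries 1 to 9. It was highest in library 3, at 2.01 above its median on the log2 scale, and next in library 4. Cdc40, a splicing factor, had 118 to 251 (median 177), also highest in library 3, with libraries 4 and 8 close to it at 241 and 239. Cdk8, a Mediator kinase, had 1.14 to 9.84 (median 4.20) and is given no range.

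Lists of further cell cycle genes are again given beside the shares of all genes, 66.4% at 4-fold or more and 36.6% lowest in library 3. Of the 27 kinetochore and checkpoint genes listed, 8 were in the table; 8 of 8 reached 4-fold and 8 of 8 were lowest in library 3. Spc24 and Spc25, of the Ndc80 complex, had 155 to 4998 and 89.7 to 4320 normalized counts. Of the spindle and cytokinesis list, 13 of 13 reached 4-fold and 12 were lowest in library 3. Ckap2l, a spindle protein, had the widest range of that list with 50.7 to 9940, and Cdca8, of the passenger complex with Aurkb, had 182 to 10586. Numa1 was the exception, highest in library 3 at 222. Of the mitotic entry and exit list, 9 of 12 reached 4-fold, near the share of all genes, and 11 were lowest in library 3. Pttg1, securin, was highest in library 3 at 514 and lowest in library 8 at 233. Of a separate list of 11 cohesin genes only Esco1 was in the table. Esco1 had 51.8 to 163 and was highest in library 3, whereas the member Smc3, of cohesin, was lowest there.

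Regulators of the G1 to S transition gave a mixed picture. Of 8 in the table, 8 reached 4-fold, against 66.4% of all genes, and 6 were lowest in library 3, against 36.6%. Mybl2, a factor that acts with MuvB, had 22.4 to 1560 normalized counts and kept a 6.45-fold range without libraries 3 and 4. E2f4, an E2F of the DREAM complex, had 1344 to 6143, and E2f5 was highest in library 3, at 160. Of the 8 CDK inhibitors listed, 2 were in the table. Cdkn2d (p19) had 609 to 1602 and was lowest in library 3. Cdkn1c (p57), which restrains the cell cycle in stem cells, had 11.5, 43.2, 2934, 1032, 19.6, 19.6, 33.8, 165 and 127 in libraries 1 to 9. It ran opposite to the cyclins, with libraries 3 and 4 the highest and libraries 8 and 9 next. On the opposite strand a predicted gene overlaps 30.7% of the exon bases of Cdkn1c.

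Replication and mitosis were then compared library by library. The value for a class in a library is the median over its genes of log2(value + 1) minus the same gene's median over the 9 libraries. In library 3 it was -2.89 for replication (quartiles -3.15 and -2.02, n = 20 genes) and -2.54 for mitosis (quartiles -4.03 and -1.37, n = 18 genes). In library 4 it was -1.38 for replication (quartiles -1.94 and -1.28) and -1.90 for mitosis (quartiles -2.72 and -1.03). The mitosis class was the more spread out in both libraries. Genes of a class are not replicates, so these differences carry no test.

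Replication minus mitosis was -0.34 in library 3 and 0.52 in library 4. In libraries 1, 2, 5, 6, 7, 8 and 9 it was -0.11, -0.07, 0.01, -0.04, -0.03, 0.00 and 0.16. The difference was at most 0.16 in size in these 7 libraries, while library 4 had mitosis the lower class. With medians taken without libraries 3 and 4, library 9 was at 0.31. The value in library 3 was not stable: it was -0.07 with scaling to the table total and -0.10 without library 7, and its sign turned on the kinesins. With the 3 cargo kinesins left out of mitosis (15 genes), its median was -3.13 in library 3 and -2.02 in library 4, and replication minus mitosis became 0.25 and 0.65. Libraries 6 and 7 were then at -0.17 and -0.18.

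**Figure D4:**
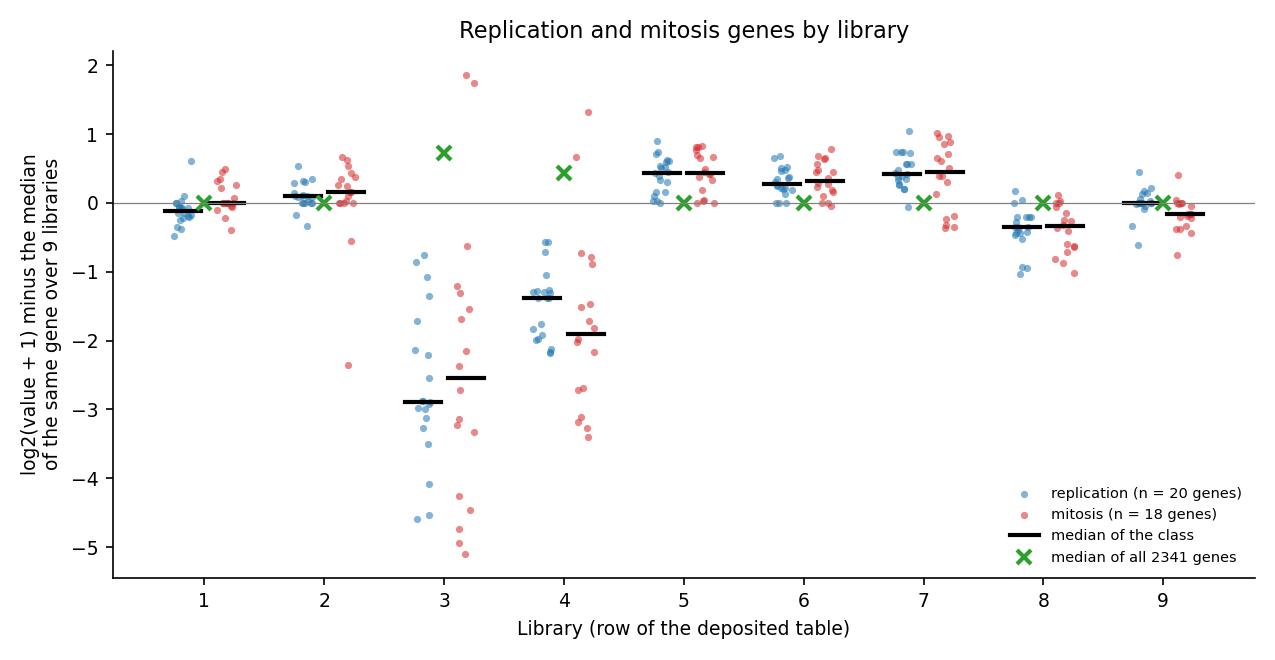
Difference of each gene from its own median over the 9 libraries, on the log2(value + 1) scale, for 20 replication (blue) and 18 mitosis genes (red) in each library; bars are class medians and crosses the median of all 2341 genes. In libraries 3 and 4 both class medians lie below 0 and the median of all genes above it, and the red points spread further than the blue.

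Summed reads gave another weighting, in which abundant genes count most. Mitosis genes held 33.0% of the replication plus mitosis reads in library 3 (exact binomial 95% interval 32.4 to 33.7) and 20.0% in library 4 (19.6 to 20.3). In the other 7 libraries they held between 17.3% in library 9 and 20.8% in library 7. A few genes set this sum. Bub3, Ncaph2, Plk1 and Kif5b, singled out after their values were seen, held 87.1% of the mitosis sum in library 3 and 83.5% in library 4, against 56.8% to 66.6% elsewhere. Without these 4 the mitosis share was 5.98% in library 3 (5.60 to 6.37) and 3.96% in library 4 (3.77 to 4.16), against 6.79% in library 8 to 9.97% in library 7. The share was highest in library 3 with these 4 genes and below that of all libraries but library 4 without them. All 4 fell less in library 3 than the class median of -2.54, at -1.21 (Bub3), -1.31 (Ncaph2), -1.69 (Plk1) and -0.62 (Kif5b) on the log2 scale. They also fell less than the class median in library 4. Leaving them out therefore lowers the share in these libraries by the choice itself, and no conclusion is drawn from it.

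**Figure D5:**
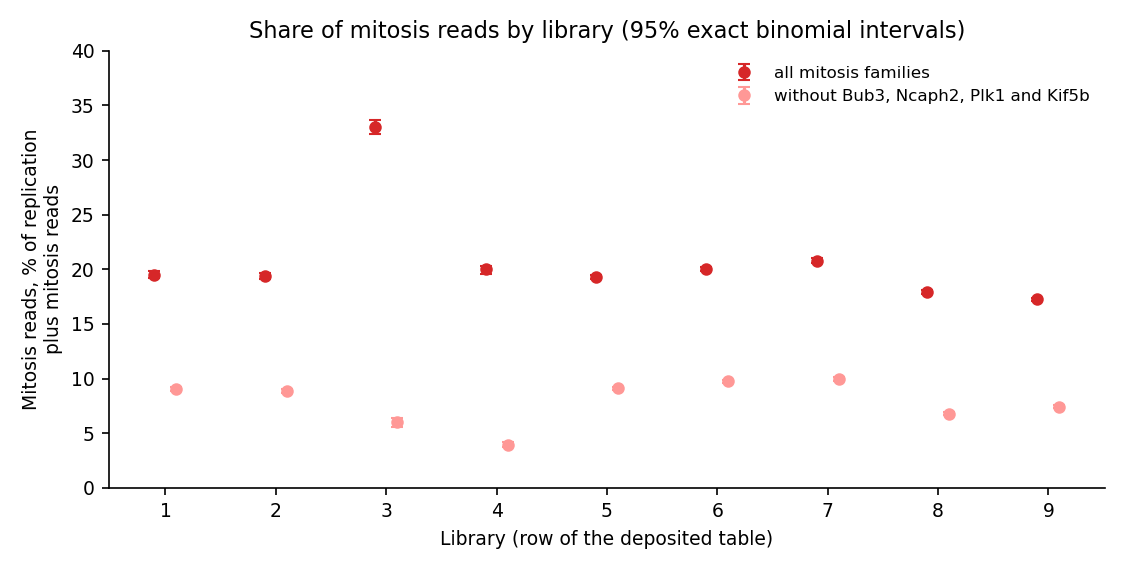
Mitosis reads as a percentage of replication plus mitosis reads in each library, with exact binomial 95% intervals for counting error, for all mitosis members (dark) and without Bub3, Ncaph2, Plk1 and Kif5b (light). Library 3 is highest in the dark series at 33.0%, and library 4 at 3.96% and library 3 at 5.98% are lowest in the light series. The genes left out were chosen after their values were seen and fell less than the class median in libraries 3 and 4.

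Outside libraries 3 and 4 the classes kept a smaller common difference with the deposited scaling. Class medians in library 8 were -0.35 for replication and -0.34 for mitosis, and in library 7 they were 0.42 and 0.45. Scaling to the table total moved all genes by 0.19 in library 8 and -0.56 in library 7 on the log2 scale. These shifts are opposite in sign to the class medians, so the difference between libraries 7 and 8 depends on the scaling. Library 7 held the highest value of 27 of 52 members, against 24.8% of all genes. That count depends on the scaling: with each library scaled to its table total it was 3 of 52, against 7.33% of all genes. With the deposited scaling, library 8 was low in Rrm2, Cenpa, Cdc6 and Ccnb1, at -1.04, -1.01, -0.93 and -0.89 from their medians on the log2 scale. It was less so in Mcm6 and Plk1, at -0.34 and -0.41. The stem cell marker sum of library 8, at 3463, was also the highest outside libraries 3 and 4, and its part was not tested. Most of that sum was Tie1, at 1676, and Ndn, at 804. Ly6a and Hlf were at 71.3 and 37.7 in library 8 and higher in library 9, at 187 and 39.8.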

How the data were processed

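Messenger RNA of 9 sorted samples was extracted with Trizol and made into libraries with a NEBNext Ultra kit, per the labels' protocols. The submitters' processing notes name mm10, Bowtie2, STAR and DESeq, without roles or versions. Not given in the sources used here are the counter, its strand setting, the annotation, the scaling and how the 2402 genes were chosen. The deposited values are normalized counts, a signal that the authors scaled for each library, in 1 table. Its 9 rows have no names, so no group was tested and each library is described by itself.

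Dividing each row by its smallest step (0.724 to 1.96 normalized counts per read) returned numbers within 0.1 of a whole read for 100% of values. Totals of 1790670 to 4373460 reads cover the genes of the table and are not library depths. The 2341 genes that reached 10 normalized counts in 2 or more libraries were summarized, with a pseudocount of 1, which understates the range of low genes. Intervals are exact 95% intervals on reads and cover counting error only. The chi-square test of reads against 1 rate was adjusted over 2341 genes at 0.05. Code used Python 3.11.15, NumPy 2.4.6, SciPy 1.17.1 and pandas 2.3.3, and was tested on simulated data. All 53 members matched GENCODE M21 (mm10), and promoters are from RefSeq.

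Members and lists were chosen with earlier results of these data known. Every member is named. The rule for named genes called for values in every library for up to 5 genes of each family. These are given in full for the members the results turn on, and as lowest, median and highest value for the others.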

Additional observations from a re-analysis of the deposited data

How the results depend on the processing

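Of 112 values recomputed under another setting, 24 moved beyond the limits used and 88 stayed within them: 0.2 on the log2 scale for replication minus mitosis, 1.5-fold for counts and the exact binomial interval for shares. Every share recomputed after leaving out mitosis genes was among those that moved, and these were most of them. Taking reads out of a sum shifts the share beyond counting error, so for shares the tally does not measure stability. Within 0.2 a sign could still change, as in library 2, at 0.05 with class means. The count of members with a range of at least 4-fold was 33 to 41 with each library left out in turn, against 50.1% to 66.1% of all genes. It was 2 without libraries 3 and 4, against 20.8%. All 52 members passed the chi-square test in each leave-one-out run, as did 95.9% to 98.8% of all genes. Replication minus mitosis in library 3 was -0.89 with a pseudocount of 5, -0.07 with scaling to the table total, 0.25 with mitotic kinesins only, and -0.38 to -0.10 with a library left out. In library 4 it was 0.28 for class means, and 0.47 to 0.56 with a library left out. In the other libraries the leave-one-out values were -0.17 to -0.07 (library 1), -0.15 to -0.01 (library 2), -0.05 to 0.06 (library 5), -0.13 to 0.06 (library 6), -0.11 to 0.10 (library 7), -0.02 to 0.10 (library 8) and 0.16 to 0.22 (library 9). With a library left out, library 3 was lowest in 45 to 48 members, against 36.3% to 44.3% of all genes. The 48 and the 44.3% both came without library 4. Library 7 was highest in 27 to 34, against 25.2% to 27.7%. Library 7 was highest in 3 with scaling to the table total, against 7.33%. The cause of these shifts was not tested. Median-of-ratios scaling moved all genes by -0.60 in library 3 and -0.33 in library 4 on the log2 scale.

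With mitotic kinesins only, the mitosis share of summed reads in libraries 1 to 9 was 18.3%, 18.5%, 28.3%, 18.0%, 18.5%, 19.1%, 20.0%, 16.5% and 16.4%. Without Bub3, Ncaph2, Plk1 and Kif5b, a choice made after seeing the data, it was 9.04%, 8.86%, 5.98%, 3.96%, 9.12%, 9.74%, 9.97%, 6.79% and 7.44%.

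No paired analysis was possible because the rows carry no sample or replicate number. Depth limits the genes with few reads: the lowest library held 1 read of Cdc25c and of Kif16b, 2 of Orc1 and 4 of Kif4 and Kif24. Without sample names no value can be set against the spread between replicates, and reads shared with overlapping genes could not be separated.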
